A study of Homo sapiens with 8 samples.

Results

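The 10 genes described here are CTNNB1 and 9 genes that beta-catenin is known to switch on in other settings: AXIN2, RNF43, ZNRF3, LGR5, NKD1, SP5, TNFRSF19, LEF1 and MYC. They were chosen by name, with earlier results of these data known. All 10 symbols were found among the 20897 genes that the files list by Ensembl identifier. The cells were HepG2, a line from a human liver cancer, and polyadenylated RNA was sequenced from 8 cultures. Genistein, a plant isoflavone that inhibits tyrosine kinases, was given to 3 of them. BMP6, a ligand of the bone morphogenetic protein family that acts in iron regulation in the liver, was given to 2 at 50 ng/ml. The other 3 received the DMSO vehicle only. The genistein dose is given as 10 micromolar in the study's design text and as 10 mM in its treatment protocol, and this difference could not be resolved. DMSO was present at 1% in all 8 cultures, which were kept in 1% serum and treated for 18 hours. Per the design text the cultures are biological replicates. All of them are of 1 cell line.

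In the canonical WNT pathway, a WNT ligand binds a Frizzled receptor and LRP5 or LRP6, which stops a destruction complex of AXIN, APC, GSK3B and CK1 from marking beta-catenin for degradation. Beta-catenin then enters the nucleus and acts with TCF and LEF factors on target genes, several of which encode brakes on the same pathway. In the liver the pathway is known for setting the gene programme of hepatocytes around the central vein. HepG2 cells carry a deletion within CTNNB1 that removes the sites through which beta-catenin is marked, so the protein is stabilised without a ligand. FPKM per gene, the unit here (fragments scaled to transcript length and to the number of mapped fragments), do not see this deletion or the amount of protein. The name "WNT target genes" is taken from other settings, and in that sense it holds for every member except CTNNB1. Whether beta-catenin drives them in these HepG2 cultures was not tested. CTNNB1 encodes beta-catenin itself, and LEF1 is both a partner of beta-catenin and a target.

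Promoters of SP5 and RNF43 are shown because SP5 had the highest level of the 10 in DMSO-treated cells and RNF43 fell with genistein. The sequences are RefSeq's, on build GRCh38.p14, and hold the 250 bases before the annotated start of a transcript, read 5′ to 3′ on the gene's strand. SP5 is at chr2:170715087-170715336 on the plus strand, and RNF43 has 2 annotated starts, at chr17:58417535-58417784 and chr17:58402722-58402971, both on the minus strand. Capitals mark the core letters bound by TCF and LEF factors, searched as CTTTGA and CTTTGT on both strands without overlap, so that TCAAAG and ACAAAG are matches on the opposite strand.
SP5: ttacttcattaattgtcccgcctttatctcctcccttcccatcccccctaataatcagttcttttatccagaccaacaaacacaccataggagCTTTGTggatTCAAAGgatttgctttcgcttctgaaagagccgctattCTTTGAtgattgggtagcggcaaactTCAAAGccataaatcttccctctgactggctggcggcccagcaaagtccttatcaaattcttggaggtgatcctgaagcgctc
RNF43, first start: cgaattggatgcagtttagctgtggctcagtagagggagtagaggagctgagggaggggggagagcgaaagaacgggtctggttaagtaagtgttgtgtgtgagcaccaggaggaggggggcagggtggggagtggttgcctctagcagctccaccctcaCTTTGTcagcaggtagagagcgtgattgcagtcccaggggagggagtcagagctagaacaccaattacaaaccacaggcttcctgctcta
RNF43, second start: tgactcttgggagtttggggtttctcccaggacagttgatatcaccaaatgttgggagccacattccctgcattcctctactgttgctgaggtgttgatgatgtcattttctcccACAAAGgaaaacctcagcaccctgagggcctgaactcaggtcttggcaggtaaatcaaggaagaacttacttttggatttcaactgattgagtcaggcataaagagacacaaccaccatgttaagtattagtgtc
The SP5 window held 4 matches, at positions -157, -147, -109 and -83 counted back from the start site. Each RNF43 window held 1. Among all 35116 windows of the same length, 8003 (22.8%) held at least 1 match and 20 (0.057%) held 4 or more. Windows of CTNNB1, RNF43, SP5, TNFRSF19 and LEF1 were found, 7 in all, and 3 of the 7 (42.9%) held a match. A match is a description of letters and does not show that a factor binds there.

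All 6 hepatocyte markers were above 0 in every library. TTR among them had 822 to 1576 FPKM with genistein, 1456 and 4173 FPKM with BMP6 and 7162 to 8195 FPKM with DMSO. It was lower with genistein than with DMSO (adjusted p 0.0193 by limma), and the other 5 did not pass in that comparison. COL1A1, COL1A2 and DCN of fibroblasts and PTPRC of leukocytes were at 0 in all 8. The remaining fibroblast and stellate marker, PDGFRB, had 0 to 2.92 FPKM with genistein, 19.5 and 14.3 FPKM with BMP6 and 1.88 to 4.91 FPKM with DMSO, and passed no comparison. The endothelial markers VWF and CDH5 were at 0 except in BMP6 1, where they summed to 1.71 FPKM. The leukocyte markers LYZ and CD68 went opposite ways with genistein. LYZ had 1149 to 1839 FPKM with genistein, 1493 and 2344 FPKM with BMP6 and 3219 to 4807 FPKM with DMSO (adjusted p 0.0448 by limma for genistein against DMSO). CD68 had 68.8 to 86.7 FPKM with genistein, 59.6 and 41.7 FPKM with BMP6 and 31.4 to 40.6 FPKM with DMSO (adjusted p 0.0406). The bile duct markers did not move as one list either. SOX9 was lower with genistein, as given further on, while KRT19 had 265 to 714 FPKM with genistein, 143 and 1645 FPKM with BMP6 and 210 to 327 FPKM with DMSO and did not pass (adjusted p 0.657 for genistein against DMSO). KRT7 was at 0 in every DMSO library and at most 0.816 FPKM elsewhere. The part of these markers in the members' values was not tested.

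Libraries are named by group and replicate number. A gene was tested if 2 or more libraries reached 1 FPKM, which left 12661 genes. Of these, genistein 2 had 2167 at 0 and DMSO 1 had 1679, against 356 to 962 in the other 6 libraries. BMP6 1 differed widely from BMP6 2 for several members. Over all tested genes BMP6 1 and BMP6 2 had a Pearson correlation of 0.847 on the log2(FPKM + 1) scale. BMP6 1 was closer to genistein 3 (0.889), and BMP6 2 was closer to DMSO 3 (0.912), which limits every BMP6 result. The members' results are therefore also given without genistein 2, BMP6 1 and DMSO 1 together where that changes a call or bears on one, a choice made after seeing the data. It leaves BMP6 2 as the only BMP6 library. In genistein against DMSO 22.2% of all tested genes passed in that fit, beside 12.1% with all 8 libraries. The sequencing depth behind the FPKM values is unknown, so no counting interval is given. FPKM summed to 1704599 in BMP6 1 and up to 3105197 in BMP6 2, and how the authors scaled the libraries to each other is unknown, which bears on every level compared between libraries. An exact 0 can be an estimate that failed as well as a true absence, and these files do not tell them apart, so such genes are only said to be listed at 0.

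In DMSO-treated cells the mean levels ran, from high to low, SP5, MYC, NKD1, CTNNB1, RNF43, AXIN2, TNFRSF19, LGR5 and ZNRF3. LEF1 was listed at 0 in all 8 libraries and was not tested, while the other 9 were. SP5 stood above 96.3% of tested genes and ZNRF3 above 55.4%, so that every detected member was in the upper part of the range. Most neighbours in this order overlapped between libraries. The exceptions were RNF43 above AXIN2, and ZNRF3 above LEF1. In genistein-treated cells the order was MYC, NKD1, SP5, CTNNB1, ZNRF3, AXIN2, RNF43, LGR5 and TNFRSF19, where the neighbours that overlapped were NKD1 and SP5, SP5 and CTNNB1, and RNF43 and LGR5. In BMP6-treated cells it was NKD1, SP5, CTNNB1, MYC, RNF43, AXIN2, ZNRF3, TNFRSF19 and LGR5, where MYC and RNF43, RNF43 and AXIN2, and ZNRF3 and TNFRSF19 did not overlap, nor did LGR5 and LEF1.

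**Figure D1:**
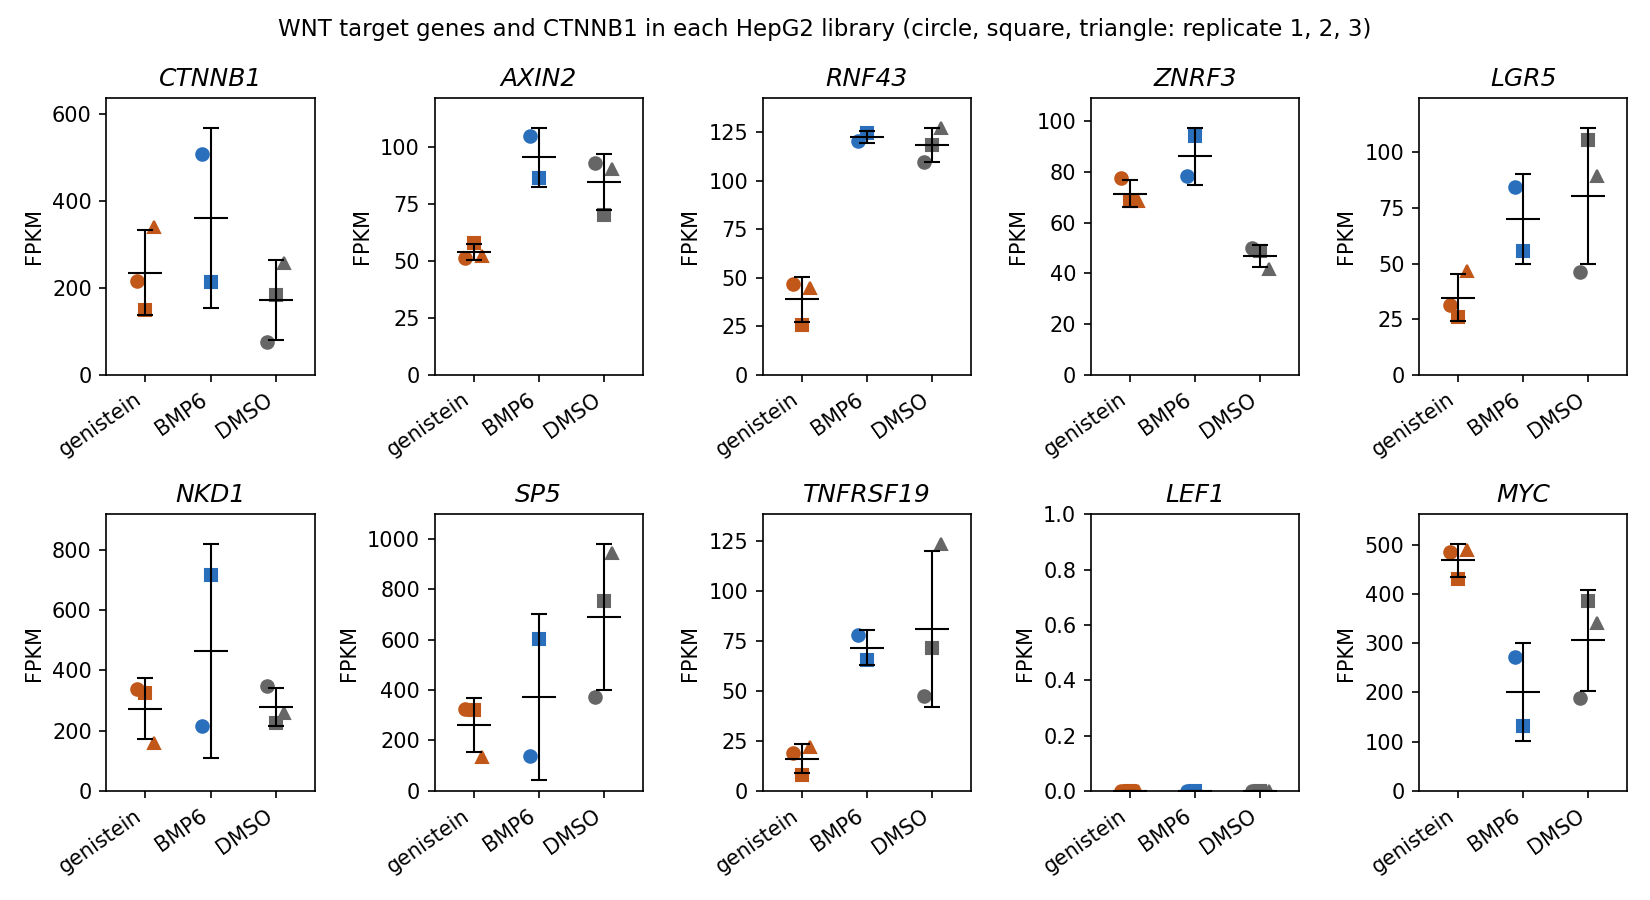
FPKM of the 10 genes in each library, with genistein (3 libraries), BMP6 (2) and DMSO (3) from left to right in every panel. Points are libraries, horizontal marks are means and bars are the SD. AXIN2, RNF43 and TNFRSF19 show genistein points below all others, and LEF1 lies at 0 throughout.

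With genistein, 2 of the 9 tested members fell and none rose. The 2 were RNF43, a membrane ubiquitin ligase that removes Frizzled receptors from the cell surface, and TNFRSF19, a receptor of the tumour necrosis factor family also called TROY. Over all 12661 tested genes, 12.1% passed the same test, with 6.11% higher and 5.96% lower. The test was limma on log2(FPKM + 1) with all 8 libraries in one fit, and p-values were adjusted by Benjamini-Hochberg across the 12661 genes, with 0.05 as the threshold. Of the 9 members, 3 had a positive difference and 6 a negative one, and the median was -0.63 on the log2 scale, beside 0.05 over all tested genes. The libraries of the 2 groups did not overlap for 6 of the 9 members, where 43.9% of all tested genes had groups that did not overlap. At an unadjusted p under 0.05 there were 4 members, AXIN2, RNF43, LGR5 and TNFRSF19, where 30.0% of all tested genes reached it. In bulk RNA, fewer cells with a transcript and less of it per cell cannot be told apart.

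The members that act on receptors at the cell surface were not alike. RNF43 (ENSG00000108375, hg18 chromosome 17, 53784860 to 53849893) had 46.6, 25.6 and 44.5 FPKM in genistein-treated cells, against 110, 119 and 127 FPKM in DMSO-treated cells. Every genistein library lay below every DMSO library. The difference was -1.63 ± 0.32 on the log2(FPKM + 1) scale (SE), 3.09-fold lower, with an adjusted p of 0.0179 by limma. An exact two-sided permutation test of the 2 groups alone gave 0.1, the smallest value that 3 against 3 allows. Without 1 library the adjusted p by limma was 0.0582 (genistein 2), 0.0646 (genistein 3), 0.0757 (DMSO 2) and 0.0597 (DMSO 3). Without the 3 libraries named above the difference was -1.41 with an adjusted p of 0.0215.

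ZNRF3 (ENSG00000183579, hg18 chromosome 22, 27609890 to 27783475) encodes the close relative of RNF43 with the same action on Frizzled. It had 77.4, 68.4 and 68.5 FPKM in genistein-treated cells, against 49.9, 48.8 and 41.6 FPKM in DMSO-treated cells. The genistein libraries were all above the DMSO ones, the opposite side from RNF43. The difference of 0.60 ± 0.27 (log2, SE) did not pass, with an adjusted p of 0.175 by limma. The gene overlaps in position with an unnamed listed gene of 3260 bases (ENSG00000218478) that had 4.78 to 11.7 FPKM with genistein and 23.0 to 29.4 FPKM with DMSO. The sources used here do not say whether the estimates took the strand of the reads into account.

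LGR5 (ENSG00000139292, hg18 chromosome 12, 70120080 to 70264889), a receptor for R-spondins and a stem cell marker of the intestine, had 31.4, 26.0 and 46.5 FPKM with genistein. With DMSO it had 46.1, 106 and 89.4 FPKM. Genistein 3 lay just above DMSO 1, so the groups overlapped. The difference was -1.15 ± 0.41 (log2, SE; adjusted p 0.108 by limma). It was -1.33 with an adjusted p of 0.0382 without the 3 libraries named above. LGR5 overlaps TSPAN8 over 1866 bases. TSPAN8 was listed at 0 in every genistein library and in both BMP6 libraries, against 11.4 to 16.4 FPKM with DMSO. LGR5 had 84.2 and 55.8 FPKM with BMP6. The part of TSPAN8 in the LGR5 values was not tested.

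The ratio of RNF43 to ZNRF3 within a library does not depend on how the library was scaled. It was chosen for display after the values were seen. The ratio was 0.602, 0.375 and 0.65 in genistein-treated cells, 1.54 and 1.33 in BMP6-treated cells, and 2.2, 2.43 and 3.06 in DMSO-treated cells. The 3 groups did not overlap, with ZNRF3 above RNF43 only in the genistein libraries among these 8. The mean log2 difference of the ratio was -2.27 between genistein and DMSO, -0.83 between BMP6 and DMSO and -1.44 between genistein and BMP6, given as a description with no test.

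**Figure D2:**
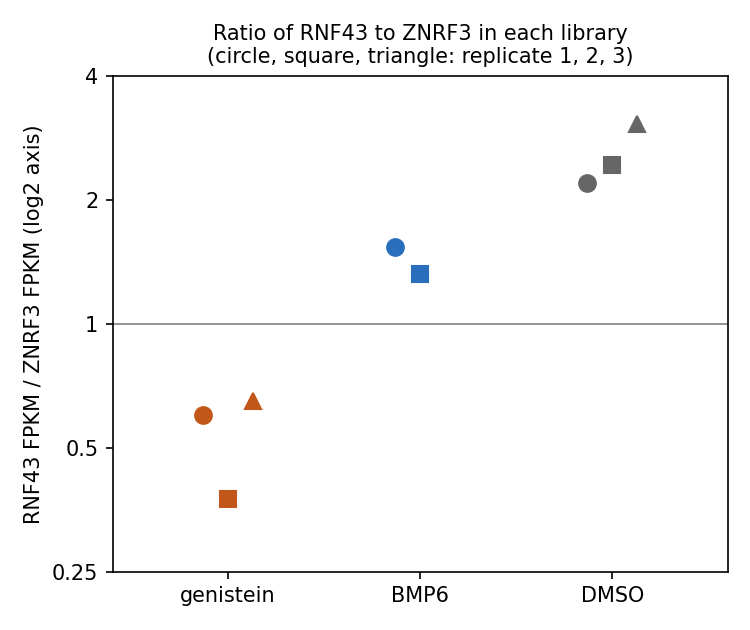
Ratio of RNF43 to ZNRF3 FPKM in each library on a log2 axis, with genistein, BMP6 and DMSO from left to right and 1 point a library. Genistein points lie between 0.375 and 0.65, BMP6 points at 1.33 and 1.54, and DMSO points between 2.2 and 3.06.

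AXIN2 and NKD1 encode brakes inside the cell. AXIN2 is a scaffold of the destruction complex and is often used as a readout of beta-catenin activity, and NKD1 binds Dishevelled. AXIN2 (ENSG00000168646, hg18 chromosome 17, 60955143 to 60988227) had 51.3, 57.9 and 52.1 FPKM with genistein, against 92.8, 70.3 and 90.5 FPKM with DMSO. All genistein libraries lay below all DMSO libraries. The difference of -0.63 ± 0.27 (log2, SE) did not pass after adjustment over all genes (adjusted p 0.164 by limma, unadjusted 0.0485). The 95% interval ran from -1.27 to -0.0053.

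NKD1 (ENSG00000140807, hg18 chromosome 16, 49139742 to 49226142) had 338, 323 and 158 FPKM with genistein, against 348, 226 and 259 FPKM with DMSO. The groups overlapped, and the difference of -0.08 ± 0.51 (log2, SE; adjusted p 0.934 by limma) had a 95% interval from -1.25 to 1.1, wide enough to hold a change of either sign. Its direction turned when single libraries were left out. NKD1 overlaps an unnamed listed gene (ENSG00000205414) over 7609 bases. That gene had 2.03 to 2.79 FPKM with genistein and 0 to 7.01 FPKM with DMSO. Its part in the NKD1 values was not tested.

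SP5 (ENSG00000204335, hg18 chromosome 2, 171280107 to 171282743), a zinc finger factor that is itself a direct target of beta-catenin, had 325, 320 and 136 FPKM with genistein. With DMSO it had 374, 755 and 942 FPKM. The groups did not overlap, but DMSO 1 lay close to genistein 1, and the difference of -1.41 ± 0.64 (log2, SE) did not pass (adjusted p 0.181 by limma). Without the 3 libraries named above it was -2.0 with an adjusted p of 0.0407.

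TNFRSF19 (ENSG00000127863, hg18 chromosome 13, 23042723 to 23148232) had 19.0, 7.81 and 21.7 FPKM with genistein, against 47.6, 71.5 and 124 FPKM with DMSO. Every genistein library lay below every DMSO library. The difference of -2.26 ± 0.49 (log2, SE), 4.79-fold lower, was the largest among the members and passed with an adjusted p of 0.0251 by limma. Without 1 library the adjusted p was 0.0597 (genistein 1), 0.0716 (genistein 2), 0.0636 (genistein 3), 0.0898 (DMSO 2) and 0.0741 (DMSO 3). Without the 3 libraries named above it was 0.0154, with a difference of -2.16.

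CTNNB1 (ENSG00000168036, hg18 chromosome 3, 41211405 to 41256943) had 216, 148 and 341 FPKM with genistein, against 74.3, 184 and 257 FPKM with DMSO. The groups overlapped and the difference of 0.54 ± 0.56 (log2, SE) did not pass (adjusted p 0.550 by limma). The spread between DMSO libraries was wide for this gene, with an SD of 0.92 on the log2 scale, above that of 83.9% of tested genes. AXIN2 was among the most even in genistein-treated cells, with an SD of 0.09, above that of only 6.27% of tested genes.

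MYC (ENSG00000136997, hg18 chromosome 8, 128816862 to 128822853), a transcription factor of cell growth and a classical target of beta-catenin in the gut, had 485, 430 and 491 FPKM with genistein. With DMSO it had 190, 387 and 341 FPKM. The genistein libraries were all above the DMSO ones. The difference of 0.68 ± 0.40 (log2, SE) did not pass (adjusted p 0.287 by limma). MYC overlaps an unnamed listed gene (ENSG00000212988) over 479 bases. That gene had 14.4, 0 and 23.5 FPKM with genistein, 5.82 and 0 FPKM with BMP6, and 0 in every DMSO library. Its part in the MYC values was not tested. LEF1 (ENSG00000138795, hg18 chromosome 4, 109188150 to 109309027) was listed at 0 in all 3 groups.

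**Figure D3:**
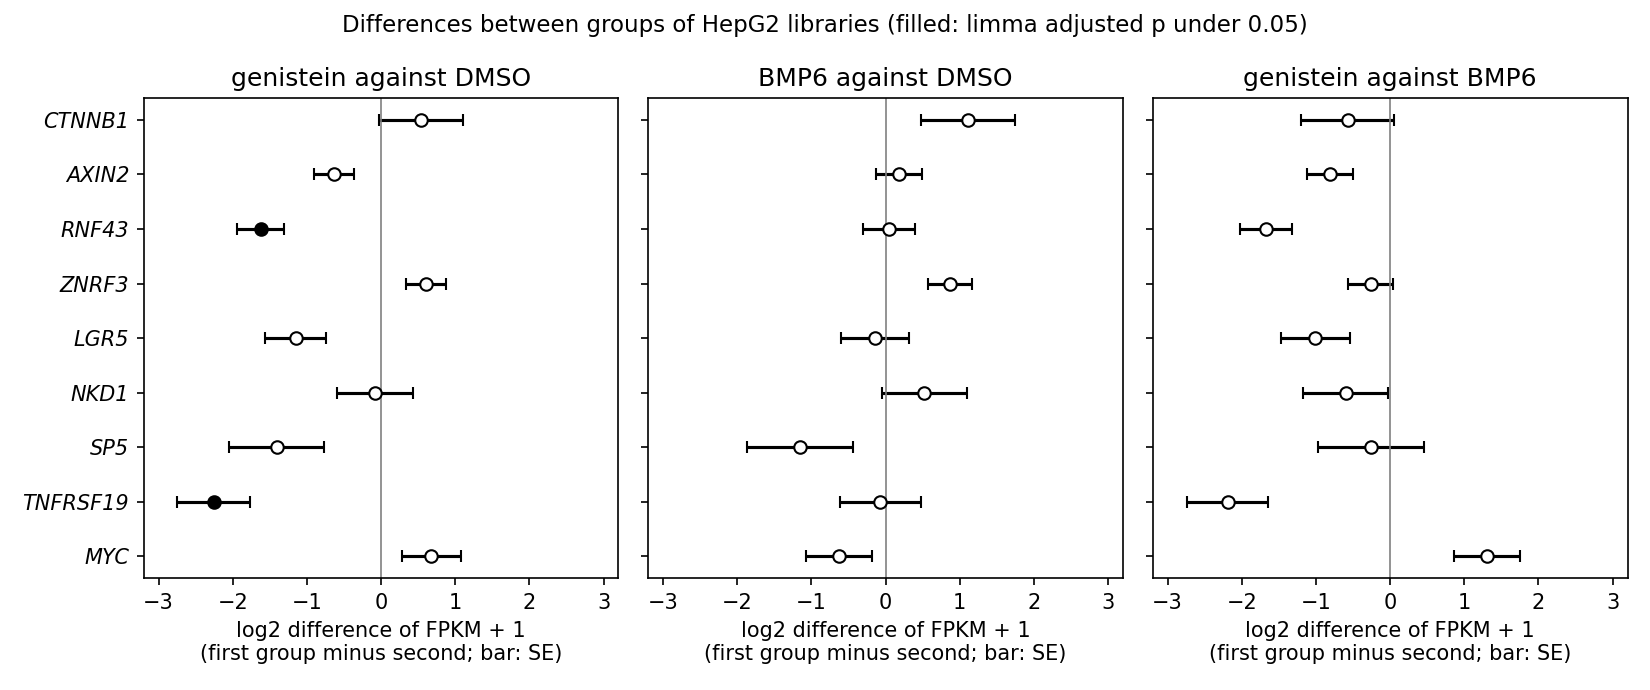
Difference of each tested member on the log2(FPKM + 1) scale in 3 panels, for genistein and for BMP6 set against DMSO, and for genistein set against BMP6. Points are limma estimates, bars are ± 1 SE, and filled points passed an adjusted p of 0.05. RNF43 at -1.63 and TNFRSF19 at -2.26 in the first panel are the filled points.

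With BMP6, none of the 9 tested members passed limma's test against DMSO, where 0.837% of all tested genes did (0.34% higher and 0.498% lower). The differences were positive for 5 members and negative for 4, with a median of 0.05 on the log2 scale beside -0.03 over all tested genes. TNFRSF19, at -0.07, turned to 0.0064 with median-of-ratios scaling. At an unadjusted p under 0.05 there was 1 member, ZNRF3, where 18.9% of all tested genes reached it. ZNRF3 was also the 1 member of 9 whose BMP6 and DMSO libraries did not overlap, where 33.3% of all tested genes did not overlap. The same DMSO libraries serve this comparison and that of genistein.

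ZNRF3 had 78.2 and 94.2 FPKM with BMP6, against 49.9, 48.8 and 41.6 FPKM with DMSO. Both BMP6 libraries were above all DMSO libraries. The difference was 0.87 ± 0.30 (log2, SE; adjusted p 0.187 by limma, unadjusted 0.0198). The unnamed gene that it overlaps had 61.0 and 47.2 FPKM with BMP6, also above its DMSO values. Its part in the ZNRF3 values was not tested.

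RNF43 had 120 and 125 FPKM with BMP6, within the range of the DMSO libraries. The difference of 0.05 ± 0.35 (log2, SE; adjusted p 0.955 by limma) had a 95% interval from -0.76 to 0.86. AXIN2 had 105 and 86.2 FPKM with BMP6, and its difference of 0.18 ± 0.31 (adjusted p 0.779 by limma) had an interval from -0.53 to 0.88. In this fit of all 8 libraries neither interval reaches a 2-fold change, which is 1 on the log2 scale, in either direction. The intervals of the other members do. With only BMP6 and DMSO libraries fitted the SE was larger, at 0.42 for RNF43 and 0.43 for AXIN2. No interval was computed for that fit, so the limit holds for the full fit only.

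TNFRSF19 had 77.7 and 65.4 FPKM with BMP6 and LGR5 had 84.2 and 55.8 FPKM, all within the range of their DMSO libraries. For the remaining members BMP6 1 and BMP6 2 were far apart. NKD1 had 214 and 716 FPKM, SP5 had 138 and 604 FPKM, CTNNB1 had 509 and 214 FPKM, and MYC had 271 and 131 FPKM. BMP6 1 was thus lower in NKD1 and SP5 and higher in CTNNB1 and MYC than BMP6 2. With 2 libraries, means for them such as 371 ± 329 FPKM for SP5 (SD, n = 2), against 691 ± 289 FPKM with DMSO (SD, n = 3), carry little weight. Their adjusted p by limma ran from 0.363 to 0.641.

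Set directly against BMP6, genistein gave no member past limma's threshold either, where 1.39% of all tested genes passed (0.64% higher and 0.75% lower). An effect of genistein that differs from that of BMP6 is thus not shown by this test for RNF43 or TNFRSF19. RNF43 came nearest, at 46.6, 25.6 and 44.5 FPKM with genistein against 120 and 125 FPKM with BMP6, a difference of -1.68 ± 0.35 (log2, SE; adjusted p 0.067 by limma). With median-of-ratios scaling it passed, at -1.87 with an adjusted p of 0.0291, and with quantile normalization too (adjusted p 0.0286). In those fits 3.29% and 3.35% of all tested genes passed.

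TNFRSF19 differed by -2.19 ± 0.55 (log2, SE; adjusted p 0.110 by limma), and passed with quantile normalization at -2.25 (adjusted p 0.0362). In that fit 3.35% of all tested genes passed. MYC differed by 1.31 ± 0.44 (adjusted p 0.222). Without genistein 2, BMP6 1 and DMSO 1, which leaves BMP6 2 as the only BMP6 library, the MYC difference was 1.89. AXIN2 differed by -0.81 ± 0.31 (adjusted p 0.274). These 4 members reached an unadjusted p under 0.05, as did 14.7% of all tested genes. Libraries of the 2 groups did not overlap for 6 of 9 members, AXIN2, RNF43, ZNRF3, LGR5, TNFRSF19 and MYC, where 28.9% of all tested genes did not overlap. Of the 9 differences 8 were negative and MYC's was positive, with a median of -0.60 beside 0.12 over all tested genes. Median-of-ratios scaling lowered the median of all genes by 0.15 here and by 0.10 in genistein against DMSO.

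Other genes of the pathway and of the MYC network were read from lists by role. The lists were chosen with earlier results of these data known, so their shares are a description and not a test of the pathway. These lists, without the 10 members and with each gene once, held 167 genes in the files, and 111 were tested. With genistein against DMSO 20 of them passed limma's test, 7 higher and 13 lower, or 18.0%, beside 12.1% of all tested genes. The count was 8, 8 and 5 without genistein 1, 2 and 3 in turn, 35 without BMP6 1 or without BMP6 2, and 12, 4 and 11 without DMSO 1, 2 and 3, while the share of all tested genes ran from 1.83% without DMSO 2 to 21.2% without BMP6 2. BMP6 against DMSO gave 1 of 111 (0.901%, beside 0.837% of all tested genes), CYP7A1. Without DMSO 2 it gave 0, and without BMP6 2 it gave 18 (16.2%, beside 15.9% of all tested genes), so that the full fit and the one without BMP6 2 were both near the background. Genistein against BMP6 gave 2 (1.80%, beside 1.39% of all tested genes), NKD2 and FZD4. It gave 0 without genistein 1 and 1 without genistein 3, where 0.335% and 0.381% of all tested genes passed. Leaving out a BMP6 library leaves only 1 in that group, so no such count is given for this comparison.

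Of 19 WNT ligands 16 were at 0 in every library and 2 were tested, neither of which passed with genistein. Of 15 tested receptors and Dishevelled genes 3 fell with genistein and 12 did not pass, with a list median of 0.08. LGR4, the R-spondin receptor related to LGR5, had 9.80, 12.3 and 8.58 FPKM with genistein, 32.9 and 30.9 FPKM with BMP6, and 83.0, 67.7 and 65.7 FPKM with DMSO. The 3 groups did not overlap, with BMP6 between the others. Against DMSO it differed by -2.71 ± 0.31 (log2, SE; adjusted p 0.0045 by limma) with genistein and by -1.15 ± 0.35 (adjusted p 0.152) with BMP6. The genistein call was kept whichever of the 8 libraries was left out.

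FZD4, a Frizzled receptor, had 16.4, 19.2 and 11.5 FPKM with genistein, 111 and 195 FPKM with BMP6, and 57.0, 77.3 and 84.3 FPKM with DMSO. Genistein libraries were lowest and BMP6 libraries highest. The gene fell by 2.15 ± 0.36 on the log2 scale against DMSO (SE; adjusted p 0.0114 by limma) and the difference from BMP6 was -3.18 ± 0.40 (adjusted p 0.0112). The call against DMSO was lost without genistein 3 or DMSO 2, at an adjusted p of up to 0.0631, and that against BMP6 without genistein 1 or genistein 3 (up to 0.059). FZD1, at 3.46 to 3.86 FPKM with DMSO and at most 0.632 FPKM with genistein, passed at an adjusted p of 0.0468 and lost the call when any genistein or DMSO library was left out. The co-receptors LRP5 and LRP6 did not pass, with differences of 0.08 and 0.29, and are named although outside the naming rule.

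Of 7 tested secreted and membrane inhibitors 1 rose and 1 fell with genistein, with a list median of -0.82. NKD2, the relative of NKD1, had 18.9, 17.1 and 10.8 FPKM with genistein and was listed at 0 in both BMP6 and all 3 DMSO libraries, zeros on which its calls rest and which may be failed estimates. It passed against DMSO (adjusted p 0.0034 by limma) whichever library was left out, and against BMP6 (adjusted p 0.009) except without genistein 1 (0.0512). SFRP4, a secreted antagonist, was listed at 0 with genistein, at 1.21 and 0 FPKM with BMP6 and at 9.44, 4.40 and 4.06 FPKM with DMSO (adjusted p 0.0174 for genistein against DMSO, lost without genistein 1, genistein 3 or DMSO 2).

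Of 16 tested genes of the destruction complex 2 fell with genistein, AMER1 and APC2, and the list median was 0.12. AMER1, a membrane scaffold that binds APC, averaged 1.67 FPKM with genistein and 12.2 FPKM with DMSO (-2.49 ± 0.62, log2, SE; adjusted p 0.0394). APC2, a relative of APC, averaged 0.683 FPKM with genistein and 4.84 FPKM with DMSO (adjusted p 0.0448). Both calls were lost when any of the genistein or DMSO libraries was left out. Of 16 tested TCF factors and cofactors 1 fell, CTBP2, a co-repressor, at an average of 0.38 FPKM with genistein and 5.50 FPKM with DMSO (adjusted p 0.0264, lost without genistein 2, genistein 3, DMSO 2 or DMSO 3). Of 5 tested cadherin partners 1 fell. It was CDH1, the E-cadherin that holds beta-catenin at cell junctions, with 6.74, 6.55 and 9.27 FPKM under genistein, 25 and 21.6 FPKM under BMP6, and 36.2, 30.8 and 29.8 FPKM under DMSO (-1.97 ± 0.33, log2, SE; adjusted p 0.0114 by limma, lost without DMSO 2 at 0.0588).

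Of 17 tested further beta-catenin targets 2 rose and 2 fell with genistein, with a list median of -0.35. Besides NKD2, VEGFA, the blood vessel growth factor, rose, with a mean of 403 ± 55.4 FPKM in genistein-treated cells and 183 ± 29 FPKM in DMSO-treated cells (SD, n = 3 each; adjusted p 0.036 by limma). SOX9, a factor of bile duct cells and progenitors, averaged 198 ± 49.3 FPKM with genistein and 979 ± 288 FPKM with DMSO (SD, n = 3 each; adjusted p 0.0179 by limma). BMP4, a BMP ligand, averaged 142 ± 40.8 FPKM with genistein and 814 ± 168 FPKM with DMSO (SD, n = 3 each; adjusted p 0.0217 by limma). The calls of VEGFA, SOX9 and BMP4 were each lost when any genistein or DMSO library was left out, at adjusted p of up to 0.13, 0.0827 and 0.0919.

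Of 8 tested pericentral liver targets 2 fell with genistein, with a list median of -0.81. The differences were negative for 5 of the 8 and positive for 3. RHBG, an ammonium transporter, had 134, 77.2 and 63.3 FPKM with genistein, 116 and 404 FPKM with BMP6, and 530, 678 and 881 FPKM with DMSO (-2.96 ± 0.51 against DMSO, log2, SE; adjusted p 0.0128 by limma, lost without genistein 2, genistein 3 or DMSO 2). CYP7A1, the rate-limiting enzyme of bile acid synthesis, was listed at 0 in all genistein and BMP6 libraries and at 21.6, 27.1 and 25.2 FPKM with DMSO, and its calls rest on zeros that may be failed estimates. It passed against DMSO with genistein (adjusted p 0.0015) and with BMP6 (adjusted p 0.0075, lost without DMSO 2 at 0.0934). GLUL, the glutamine synthetase gene that marks pericentral hepatocytes, had 744, 632 and 591 FPKM with genistein and 1207, 1148 and 839 FPKM with DMSO and did not pass (adjusted p 0.208). OAT, of the same list, lay on the other side, at 196, 152 and 197 FPKM with genistein and 104, 102 and 115 FPKM with DMSO. It did not pass either (adjusted p 0.127 by limma). Both GLUL and OAT are named although outside the naming rule. CYP2E1, CYP1A2 and LECT2 were at 0 in all 8 libraries.

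In the MYC network, 3 of 13 tested partners and antagonists rose with genistein and 1 fell, with a list median of 0.02. MXD1, which competes with MYC for its partner MAX, rose by 1.65 ± 0.32 (log2, SE; adjusted p 0.0176), and its relative MXD4 fell by 1.47 ± 0.38 (adjusted p 0.0419). MLXIP, a glucose-responsive factor, and MYCL, a member of the MYC family, rose (adjusted p 0.0306 and 0.0469). All 4 calls by limma were lost when single libraries were left out, MXD1's in 3 of 8 cases.

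Of 15 tested growth and ribosome genes linked to MYC 2 rose with genistein and none fell, 12 of the 15 differences were positive, and the list median was 0.74 beside 0.05 over all tested genes. The 12 housekeeping genes, of which 1 rose (TBP, adjusted p 0.0218 by limma), had a median of 0.50 in the same comparison. ODC1, the rate-limiting enzyme of polyamine synthesis, had 898, 778 and 811 FPKM with genistein, 353 and 406 FPKM with BMP6, and 118, 221 and 227 FPKM with DMSO. The 3 groups did not overlap. It rose by 2.19 ± 0.34 against DMSO (log2, SE; adjusted p 0.0093 by limma), a call kept whichever library was left out. RCL1, which acts in ribosomal RNA processing, rose by 1.71 ± 0.32 (adjusted p 0.0159, lost without DMSO 2 or any genistein library).

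**Figure D4:**
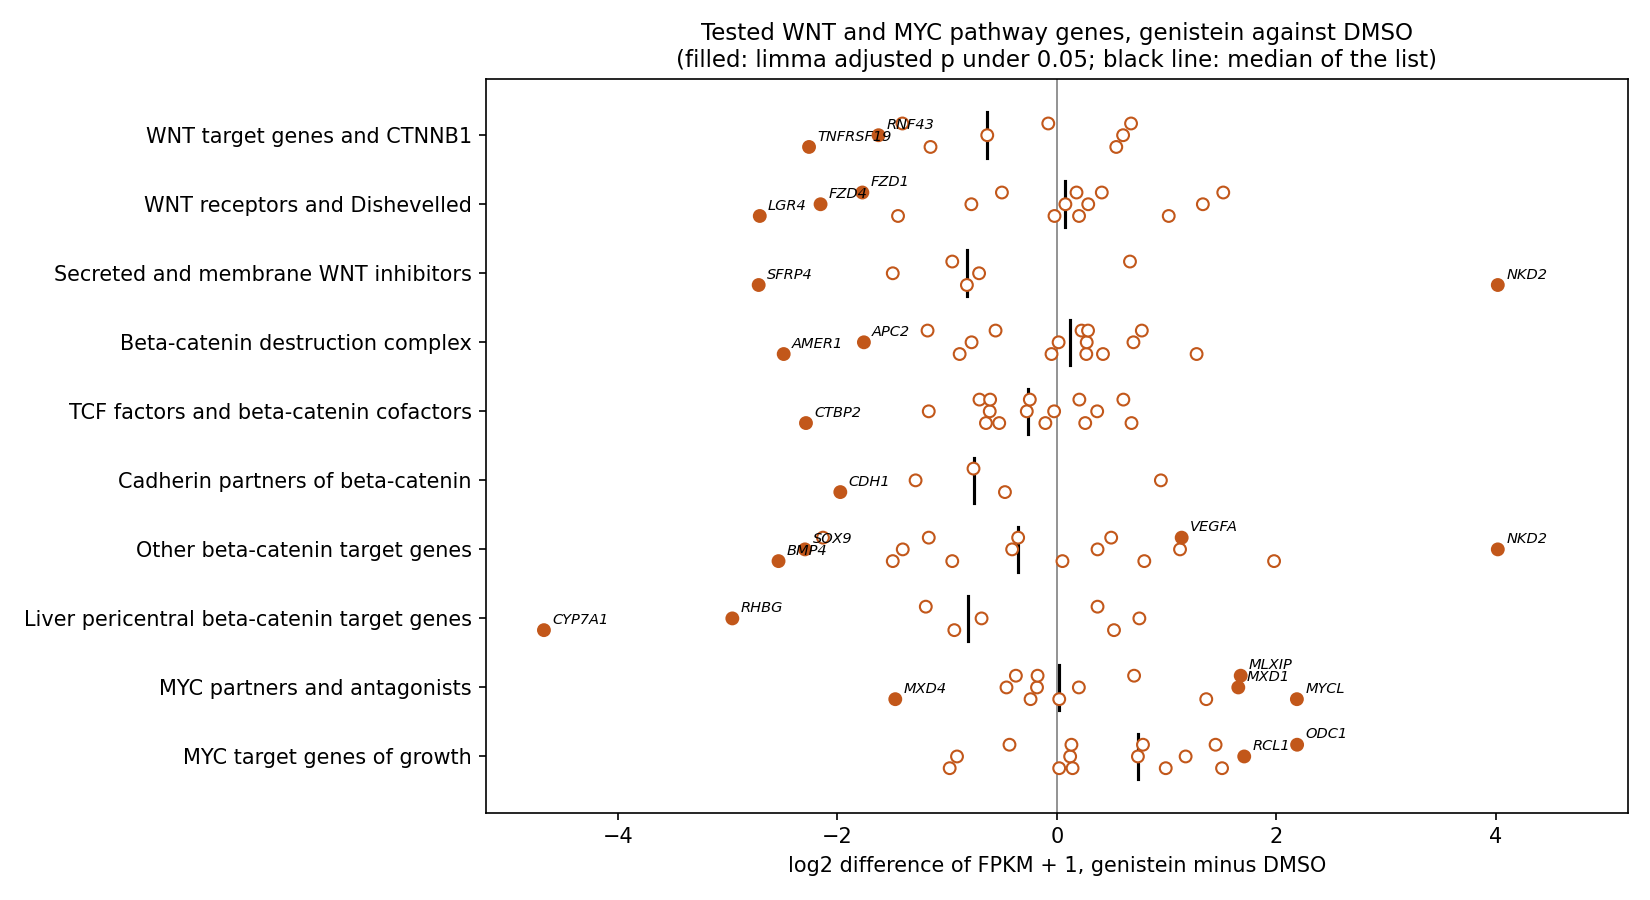
Differences on the log2(FPKM + 1) scale between genistein and DMSO for the tested genes of 10 lists, 1 point a gene and 1 row a list. Filled points passed an adjusted p of 0.05 by limma and black lines are list medians, from -0.82 for the inhibitors to 0.74 for growth genes linked to MYC. NKD2 is in 2 lists, and the places of NKD2, CYP7A1 and SFRP4 depend on the added 1 FPKM, since a group was listed at 0.

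Genes whose profile over the 8 libraries was most like that of AXIN2 were found by the root-mean-square difference of log2(FPKM + 1) after centring each gene, among 11070 genes of at least 5 FPKM on average. The 5 closest were GLT8D1 (0.16), BNIP3L (0.17), the unnamed ENSG00000215394 (0.18), SLC35A2 (0.19) and ZSCAN25 (0.19), beside a median of 0.86. Of the other members the closest was LGR5, at rank 1212 and a difference of 0.52. RNF43 followed at rank 1556 and SP5 came last at rank 6780. The measure counts the size of a change as well as its direction, and AXIN2 varied only 2.04-fold over the 8 libraries. A gene that moves further in the same direction therefore ranks low. TNFRSF19, also lower in every genistein library than in every DMSO library, was at rank 6379 with a difference of 0.925. Whether the members share regulation was not tested. The 8 libraries are shared by all of these profiles.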

How the data were processed

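Polyadenylated RNA of 8 HepG2 cultures was sequenced on an Illumina Genome Analyzer II, per the labels' protocols. The authors deposited FPKM per gene with lower and upper bounds, per the file headers. The submitters' processing notes name TopHat 1.1.0, Bowtie, Cufflinks 1.0.3, Cuffdiff and build hg18, with no roles, and not how libraries were scaled to each other. Depth is unknown, since low values gave no whole reads. The authors' intervals had a half-width of 2 times the square root of the FPKM, within 0.05, for 60.2% to 69.2% of genes above 0, and were not used as errors.

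Symbols were matched by Ensembl identifier (19069 of 20897 genes). Differences were fitted with limma 3.58.1 (R 4.3.3, intensity trend) on log2(FPKM + 1), over all 8 libraries, for the 12661 genes that reached 1 FPKM in 2 or more. The code was tested on simulated data. Fold changes of low genes are understated on this scale. Exact permutation tests used SciPy 1.17.1, and 3 against 2 gave no p below 0.2. The members and lists were chosen with earlier results of these data known. All members are named, and up to 4 genes per list and comparison that passed with groups that did not overlap, smallest p first; others were chosen after their values were seen. Alternatives covered the pseudocount, filter, scaling, samples fitted, replicate block, trend, library weights and leaving out libraries.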

Additional observations from a re-analysis of the deposited data

How the results depend on the processing

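Over 513 alternative values for single members, 474 kept direction and side of the threshold, 11 lost the call, 10 gained it and 18 changed sign. Members past the threshold in genistein against DMSO numbered 2, with 0 under the replicate block, 5 with library weights (arrayWeights, whose iterations did not fully converge), 0 to 2 without 1 library and 4 without genistein 2, BMP6 1 and DMSO 1. Of all tested genes, 12.1% passed in the main fit, 3.27% under the block and 42.5% with weights. That share was 1.83% to 21.2% without 1 library and 22.2% without those 3 libraries. In BMP6 against DMSO none passed under any of the 19 alternatives. In genistein against BMP6 the count of 0 became 1 with median-of-ratios scaling and 2 with quantile normalization. Of all tested genes 3.29% and 3.35% passed there, beside 1.39% in the main fit. The member count stayed 0 without 1 genistein or DMSO library. Without those 3 libraries BMP6 2 is the only BMP6 library, so no member count is given there.

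All genes past the threshold in genistein against DMSO (1527) became 2395 with quantile normalization, 2690 with only the compared groups fitted, 414 under the replicate block, 5383 with library weights, 229 to 2671 without 1 library and 2780 without the 3. In BMP6 against DMSO the 106 became 184 with a pseudocount of 5, 38 with a mean of at least 5 FPKM, 382 and 338 with median-of-ratios and quantile scaling, 17 with the compared groups only, 4 under the replicate block, 173 without the trend, 8 with weights, 5 to 1999 without 1 library and 503 without the 3. In genistein against BMP6 the 176 became 417, 424, 37, 7 and 38 with median-of-ratios scaling, quantile normalization, compared groups only, replicate block and weights, 42 to 629 without 1 library and 883 without the 3.

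Changes of sign were in values that had not passed. In genistein against DMSO, NKD1 was 0.11 with weights and -0.27 to 0.28 without 1 library. In BMP6 against DMSO, CTNNB1 was -0.021 without the 3 libraries; without 1 library RNF43 was -0.0047 to 0.10, LGR5 -0.50 to 0.15, NKD1 -0.35 to 1.39 and TNFRSF19 -0.39 to 0.285. Under the replicate block LGR5 was 0.028 and TNFRSF19 0.24, and TNFRSF19 was 0.0064 with median-of-ratios scaling. In genistein against BMP6, CTNNB1 was 0.34 without the 3 libraries, and without 1 library CTNNB1 was -1.19 to 0.050, NKD1 -1.47 to 0.27 and SP5 -1.32 to 0.81. The causes were not tested. Same-numbered genistein and DMSO libraries did not deviate together (correlations of -0.146, -0.065 and -0.005), so the numbers were not taken as pairs. The deviations of genistein 3 correlated at 0.594 with BMP6 1, a library of another number. With 2 libraries in the BMP6 group, deviations from its mean mirror each other. The -0.594 with BMP6 2 therefore follows from the 0.594 and adds nothing to it. Under the block the adjusted p in genistein against DMSO was 0.0691 for RNF43 and 0.0521 for TNFRSF19.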

Other observations

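The TCF factors TCF7, TCF7L1 and TCF7L2, which like LEF1 partner beta-catenin in the nucleus, were detected in these cells, and none passed limma's test in the 3 comparisons. These genes were chosen after their values were seen. TCF7 had 42.0, 34.9 and 24.6 FPKM with genistein, 15.0 and 64.2 FPKM with BMP6, and 63.0, 65.3 and 105 FPKM with DMSO. TCF7L2, another TCF factor, had 58.2, 78.7 and 64.8 FPKM with genistein, 72.5 and 40.3 FPKM with BMP6, and 38.0, 38.2 and 48.5 FPKM with DMSO. Genistein libraries were thus all below the DMSO ones for TCF7 and all above them for TCF7L2. AXIN1, the scaffold related to AXIN2, had 174, 178 and 131 FPKM with genistein, against 65.1, 50.8 and 84.5 FPKM with DMSO (1.27 ± 0.38, log2, SE; adjusted p 0.0625), the other side from AXIN2.

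RSPO1, a secreted ligand of LGR4 and LGR5, had 14.4, 102 and 4.12 FPKM with genistein, 10.6 and 105 FPKM with BMP6, and 8160, 312 and 282 FPKM with DMSO. The first DMSO library stood far above the others of its group. The difference between genistein and DMSO of -5.48 ± 1.58 (log2, SE) did not pass (adjusted p 0.0581 by limma). NOTUM, a secreted enzyme that inactivates WNT ligands, had 1505, 1128 and 763 FPKM with genistein, 727 and 4343 FPKM with BMP6, and 3488, 1465 and 1845 FPKM with DMSO, and genistein and DMSO overlapped (adjusted p 0.384).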
